A study of Homo sapiens with 9 samples.

Results

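HLA class I molecules carry peptides from inside the cell to its surface, where CD8 T cells and natural killer cells read them. The 9 genes described here encode that molecule and the machinery that loads it: the classical heavy chains HLA-B and HLA-C, the non-classical heavy chains HLA-E and HLA-F, the light chain B2M, the peptide transporter subunits TAP1 and TAP2, the loading factor TAPBP (tapasin) and the transactivator NLRC5. They were chosen by name and function, with earlier results of these data known. All 9 were found among the 78894 Ensembl gene identifiers of the deposited tables.

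RNA was sequenced from CAL27 cells, an established tongue squamous carcinoma line, grown in DMEM with serum and given no treatment per the labels. The labels name 4 groups: Control, with 3 samples, and the CRISPR knockouts A2ko, A8ko and C9ko, with 2 samples each. They do not name the edited sequence, the guides, or whether a knockout is 1 clone or a pool, so no targeted gene was checked. By its title, the series is about an enhancer active in this kind of cancer. The 2 files of A2ko were identical, as were the 2 of A8ko, and their headers name 1 library per pair. Identical files were used once, so the results rest on 7 distinct libraries, of which 3 were Control, 2 were C9ko, and A2ko and A8ko had 1 apiece. Differences of A2ko and A8ko from Control are therefore given without a p-value, since nothing replicates them. Nothing says whether the samples of Control or C9ko were separate cultures, so p-values measure the spread between these samples, which may be technical.

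Values are TPM, a length-scaled share of each library's transcripts, so they can be compared between genes. TPM keeps no record of read depth, and the depth is unknown. Mitochondrial transcripts took 23.1% to 26.9% of the TPM in Control and 20.2% and 17.9% in C9ko, with A2ko at 25.2% and A8ko at 20.6%. The median log2 difference from Control over the 17100 genes tested was 0.11 for C9ko, 0.12 for A2ko and 0.09 for A8ko. The squamous markers KRT5, KRT14, TP63, CDH1 and EPCAM were present in every library, at a summed 12900 to 13814 TPM in Control, 7451 and 7252 in C9ko, 3940 in A2ko and 5817 in A8ko. KRT5 and KRT14 made up most of that sum, at means of 8917 and 3877 TPM in Control, and both fell in each knockout. CDH1 was above all Control libraries in each knockout. TP63 and EPCAM were above them in C9ko and below them in A2ko, and in A8ko TP63 was below and EPCAM above. The part of these markers in the differences below was not tested, and the mitochondrial share was examined only by leaving mitochondrial genes out. With them left out, the median over tested genes was 0.02 for C9ko, 0.13 for A2ko and 0.03 for A8ko. In bulk RNA, fewer cells expressing a gene and less of its RNA per cell cannot be told apart.

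A class I molecule is a heavy chain paired with B2M, and without peptide and B2M the heavy chain is held back in the endoplasmic reticulum. TAP1 and TAP2 form the channel that pumps peptides into that compartment, and tapasin bridges the channel to the empty heavy chain. Transcription of these genes is raised by interferon, through IRF factors at ISRE elements, by NF-kB, and by NLRC5, which joins a protein complex on an upstream module of class I promoters. Carcinomas often lower this pathway, and interferon restores it in many lines.

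Promoter sequences of 7 of the 9 members were matched in RefSeq on GRCh38.p14, HLA-B, HLA-C, HLA-F, B2M, TAP1, TAP2 and TAPBP. Those of 4 members are shown: a pair of heavy chains, the light chain, and a transporter subunit. They are the ones whose window reaches before the first base of the gene in GENCODE release 29. The windows of HLA-F, TAP1 and TAPBP lie inside the gene there and are not printed, though they also held matches. Each runs 5′ to 3′ from 250 bases before the RefSeq start and ends before the first base of the gene in GENCODE release 29. Capitals mark matches, on either strand, to the NF-kB consensus or to either form of the interferon-stimulated response element (ISRE): GAAA, any 2 bases and GAAA, or GAA, any 2 bases and GAAA. Matches of these forms may overlap.

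HLA-B, chr6:31357189-31357429, minus strand: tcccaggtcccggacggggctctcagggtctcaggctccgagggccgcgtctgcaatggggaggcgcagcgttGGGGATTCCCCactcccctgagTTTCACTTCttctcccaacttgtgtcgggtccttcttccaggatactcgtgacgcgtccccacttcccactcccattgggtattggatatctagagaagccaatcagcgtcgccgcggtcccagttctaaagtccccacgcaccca

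HLA-C, chr6:31272131-31272342, minus strand: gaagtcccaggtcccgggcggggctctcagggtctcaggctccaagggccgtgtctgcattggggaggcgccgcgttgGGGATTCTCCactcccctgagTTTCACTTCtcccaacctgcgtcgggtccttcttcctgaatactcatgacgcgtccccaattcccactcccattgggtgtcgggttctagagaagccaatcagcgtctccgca

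B2M, chr15:44711267-44711486, plus strand: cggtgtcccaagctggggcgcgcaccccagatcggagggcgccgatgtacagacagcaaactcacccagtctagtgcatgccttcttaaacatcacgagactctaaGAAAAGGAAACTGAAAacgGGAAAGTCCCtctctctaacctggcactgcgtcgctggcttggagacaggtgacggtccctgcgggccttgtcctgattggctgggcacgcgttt

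TAP2, chr6:32838781-32838989, minus strand: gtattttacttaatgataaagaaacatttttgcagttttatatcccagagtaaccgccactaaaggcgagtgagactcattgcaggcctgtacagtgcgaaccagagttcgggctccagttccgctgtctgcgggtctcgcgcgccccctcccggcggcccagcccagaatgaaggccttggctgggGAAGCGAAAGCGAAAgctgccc

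HLA-B and HLA-C both held an NF-kB match followed by the ISRE form TTTCACTTC, a reverse-strand match to the shorter form, at -155 to -147 from the RefSeq start in HLA-B and at -151 to -143 in HLA-C. B2M held overlapping ISRE matches at -144 to -135 and -138 to -129 and an NF-kB match at -125 to -116. TAP2 held overlapping ISRE matches between -63 and -49 and no match to the NF-kB consensus. Over the 250 bases before the start, 7 of the 7 members with a sequence matched an ISRE form, against 9.09% of the 34786 distinct promoter windows of that length in the table. The NF-kB consensus was matched in 5 of the 7, against 5.21% of windows. The core TGACG of the cyclic AMP response element was matched in HLA-B, HLA-C, B2M and TAP2, against 21.2% of windows, and CCAAT in 5 of the 7, against 32.0%. These are matches of letters in the reference, which may differ from the alleles of CAL27, and they show no binding.

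In Control, B2M was the most abundant member, at 1227 ± 83.1 TPM (SD, n = 3), above 99.5% of tested genes. HLA-C followed at 464.2 ± 23.1 TPM, TAPBP at 122.9 ± 8.43, TAP1 at 108.0 ± 5.41, HLA-B at 86.1 ± 11.0, HLA-E at 74.1 ± 2.31, TAP2 at 50.5 ± 0.946, HLA-F at 33.3 ± 4.97 and NLRC5 at 15.9 ± 1.02 (SD, n = 3 for each). The order was the same in each Control library. Of neighbours in this order, HLA-B and HLA-E overlapped in range and the other pairs did not. HLA-C took 70.6% ± 0.628 of the summed heavy chain TPM of HLA-B, HLA-C, HLA-E and HLA-F (SD, n = 3). Unedited CAL27 cells thus expressed every part of the pathway, with NLRC5, a regulator, lowest.

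**Figure D1:**
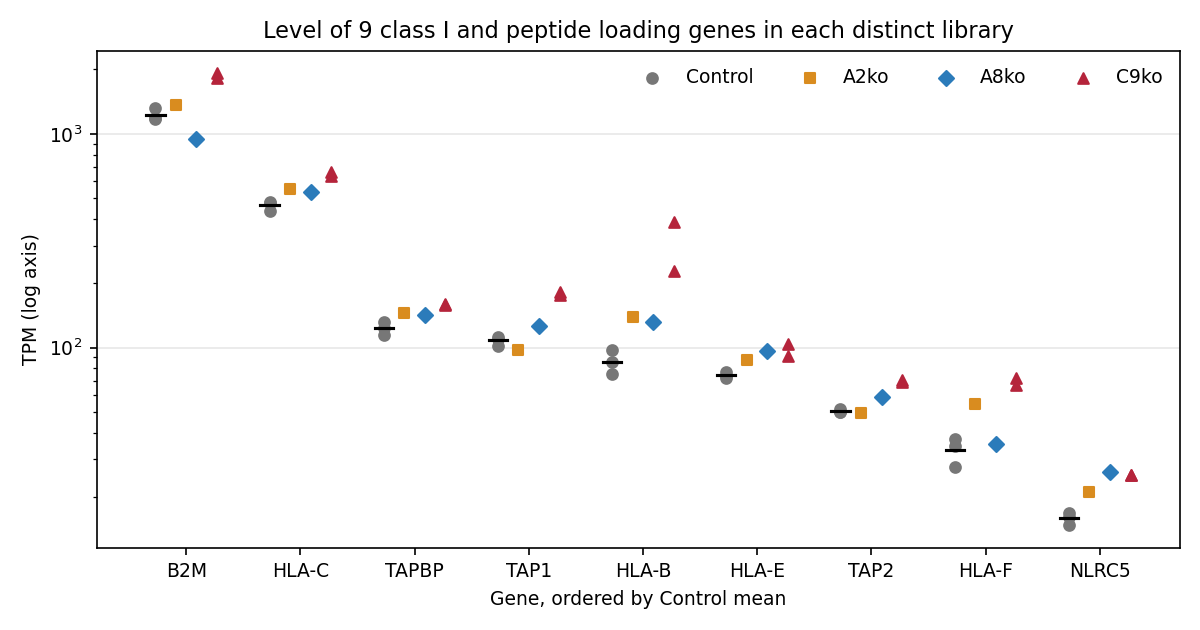
TPM on a log axis for the 9 genes, ordered by Control mean, with 1 point per distinct library (circles Control, squares A2ko, diamonds A8ko, triangles C9ko) and a bar at the Control mean. The C9ko points lie above the Control points for each gene, and B2M in A8ko lies below them.

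C9ko, the knockout with replicates, was higher than Control for the whole set. Limma's moderated test called 9 of 9 members at an adjusted p-value under 0.05, all higher, where 29.5% of tested genes were called and 22.0% were called higher. The members were chosen with earlier results of these data known, so this count is a description of the set and not an independent test. The rises ran from 1.29-fold for TAPBP to 3.57-fold for HLA-B in TPM. The median log2 difference of the members was 0.61, against 0.11 over all tested genes. Both C9ko libraries lay above all Control libraries for 9 of 9 members, which held for 41.1% of tested genes. With libraries rescaled by their median ratio, which moved the median of all genes to 0.00, 9 of 9 were still called higher. Each rise was then smaller, from 0.25 log2 units in TAPBP (limma adjusted p 0.0473) to 1.66 in HLA-B. HLA-E was at 0.27 in place of 0.39, and HLA-C at 0.36 in place of 0.48. With mitochondrial genes left out, 9 of 9 were also called higher, with TAPBP at 0.27, HLA-E at 0.29 and HLA-C at 0.38.

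Among the classical heavy chains, HLA-B was at 97.4, 75.5 and 85.2 TPM in Control and at 387.2 and 227.7 TPM in C9ko. The groups did not overlap, but the C9ko libraries were 0.763 log2 units apart, a gap reached by 3.09% of tested genes. HLA-B rose by 1.78 log2 units (standard error 0.22, limma adjusted p 0.00132), 2.16 in the first C9ko library and 1.40 in the second. HLA-C was at 476.1, 437.6 and 478.8 TPM in Control and at 637.3 and 660.9 TPM in C9ko, with no overlap. HLA-C rose by 0.48 (SE 0.07, limma adjusted p 0.00283).

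These genes lie on chromosome 6 (GRCh38), HLA-B (ENSG00000234745) from 31269491 to 31357188 and HLA-C (ENSG00000204525) from 31268749 to 31272130. In GENCODE release 29 the HLA-B gene runs over HLA-C on the same strand, and the heavy chains are alike in sequence, so the share of reads each received is uncertain. Their sum avoids part of that. HLA-B, HLA-C, HLA-E, HLA-F and the pseudogenes HLA-H and HLA-J together were at 684.3, 614.3 and 678.1 TPM in Control and at 1193.5 and 1066.0 TPM in C9ko, 1.72-fold higher and 0.78 log2 units above Control. HLA-C per HLA-B was 4.89, 5.79 and 5.62 in Control and 1.65 and 2.90 in C9ko. This ratio was lower in both C9ko libraries than in any Control library, but it depends on the uncertain share of reads given to each gene.

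The non-classical heavy chains present a narrower set of peptides or, in HLA-F, can reach the surface without one, and HLA-E is a ligand of inhibitory receptors on natural killer cells. HLA-F (ENSG00000204642, chromosome 6, 29722775 to 29738528) was at 34.7, 27.8 and 37.4 TPM in Control and at 71.8 and 66.9 TPM in C9ko. It rose by 1.05 log2 units (standard error 0.12, limma adjusted p 0.0012), the second largest rise of the set. HLA-F overlaps HLA-F-AS1 on the other strand, and whether counting used strand is not given in the sources used here. HLA-E (ENSG00000204592, chromosome 6, 30489467 to 30494205) was at 72.2, 73.4 and 76.7 TPM in Control and at 91.7 and 103.6 TPM in C9ko, again with no overlap. HLA-E rose by 0.39 (SE 0.07, limma adjusted p 0.00817), a call that was lost without the second C9ko library, at a limma adjusted p of 0.0529, and with no filter on low values, at 0.0526.

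B2M (ENSG00000166710, chromosome 15, 44711487 to 44718877) was at 1322.5, 1172.3 and 1185.5 TPM in Control and at 1821.4 and 1917.9 TPM in C9ko. It rose by 0.61 log2 units (standard error 0.08, limma adjusted p 0.0022). B2M per summed heavy chain (HLA-B, HLA-C, HLA-E and HLA-F) was 1.94, 1.91 and 1.75 in Control and 1.53 and 1.81 in C9ko. The ratio of light to heavy chain in C9ko thus overlapped Control, while both parts of it were higher.

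The transporter and loading genes rose less than HLA-B and about as evenly as B2M between libraries. TAP1 (ENSG00000168394, chromosome 6, 32845209 to 32853978) was at 112.6, 102.0 and 109.4 TPM in Control and at 182.2 and 175.9 in C9ko, a rise of 0.72 log2 units (SE 0.07, limma adjusted p 0.000409). TAP2 (ENSG00000204267, chromosome 6, 32821833 to 32838780) was at 51.5, 50.1 and 49.7 TPM in Control and at 69.4 and 70.7 in C9ko, a rise of 0.47 (SE 0.06, limma adjusted p 0.00146). TAP1 per TAP2 was 2.19, 2.04 and 2.20 in Control and 2.63 and 2.49 in C9ko, so the subunit ratio was above Control in both. TAP1 overlaps PSMB9 and PSMB8-AS1 on the other strand.

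TAPBP (ENSG00000231925, chromosome 6, 33299694 to 33314387) was at 131.0, 123.5 and 114.2 TPM in Control and at 157.6 and 159.9 in C9ko, the smallest rise of the set at 0.37 log2 units (SE 0.07, limma adjusted p 0.0106). Its call was lost without the second C9ko library, at a limma adjusted p of 0.055, with no filter on low values, at 0.0629, and with the replicate number as a block, at 0.0997. NLRC5 (ENSG00000140853, chromosome 16, 56989485 to 57083531) was at 16.8, 14.8 and 16.1 TPM in Control and at 25.4 and 25.2 in C9ko. It rose by 0.64 (SE 0.08, limma adjusted p 0.00122), with the C9ko libraries 0.009 log2 units apart.

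**Figure D2:**
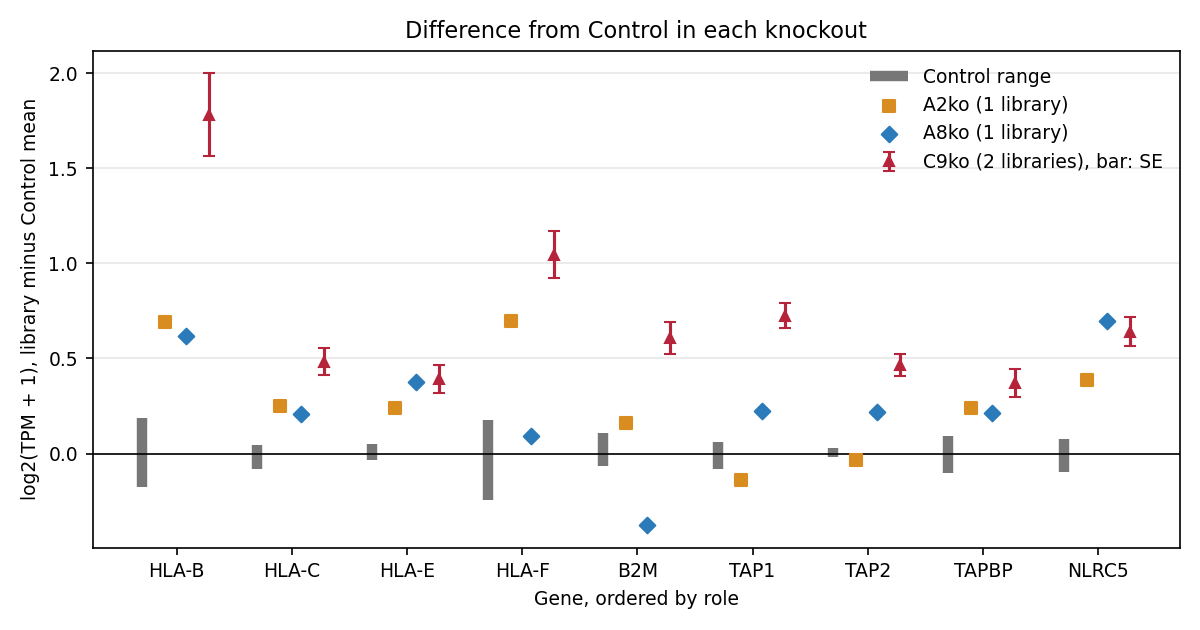
Difference from the Control mean on log2(TPM + 1) for the 9 genes, ordered by role, with the Control range as a grey bar, A2ko and A8ko as single libraries, and C9ko as the limma estimate with its SE. C9ko runs from 0.37 in TAPBP to 1.78 in HLA-B, and A8ko is below Control in B2M and A2ko in TAP1 and TAP2.

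In A2ko, a single library, 7 members lay above all Control libraries and 2 below, beside 50.4% and 26.3% of tested genes. HLA-B was at 139.0 TPM, HLA-C at 550.8, HLA-E at 87.6, HLA-F at 54.2, B2M at 1370, TAPBP at 145.1 and NLRC5 at 21.1 TPM, each above all Control libraries. TAP1 at 97.9 and TAP2 at 49.2 TPM lay below all of them. The log2 differences were 0.69 in HLA-B and 0.70 in HLA-F, and 0.16 to 0.39 in HLA-C, HLA-E, B2M, TAPBP and NLRC5. TAP1 was at -0.14 and TAP2 at -0.04, and TAP2 overlapped Control with mitochondrial genes left out. The share of members below Control is near that of all genes, so nothing is read from it.

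In A2ko, a step outside the Control range and of 1 log2 unit or more was taken by 0 of 9 members, and by 5.07% of tested genes. With libraries rescaled by their median ratio, B2M was at -0.01 and no longer outside the Control range, TAP1 was at -0.31 and TAP2 at -0.20. HLA-B, HLA-C, HLA-E, HLA-F, TAPBP and NLRC5 were above all Control libraries under that scaling too, where 35.4% of tested genes were above and 41.0% below. HLA-C, HLA-E and TAPBP were then at 0.08, 0.07 and 0.07, in place of 0.25, 0.24 and 0.24, and HLA-B and HLA-F at 0.53.

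In A8ko, also a single library, B2M was the 1 member below all Control libraries. It was at 942.7 TPM, below the 1172.3 TPM of the lowest Control library and 0.38 log2 units under the Control mean. HLA-B was at 132.1 TPM, HLA-C at 535.7, HLA-E at 96.3, TAP1 at 126.3, TAP2 at 58.8, TAPBP at 142.4 and NLRC5 at 26.3 TPM, each above all Control libraries. HLA-F, at 35.2 TPM, lay within the Control range. Of tested genes, 46.9% were above and 26.4% below all Control libraries in A8ko, and 4.73% were outside the range by at least 1 log2 unit, which no member was. The members' positions were the same with libraries rescaled by their median ratio, where 37.8% of tested genes were above and 34.3% below, and with mitochondrial genes left out, where 39.6% were above and 32.8% below.

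NLRC5 had its highest value of the 7 libraries in A8ko, 0.70 log2 units above Control, and HLA-E was 0.37 above, while B2M lay below Control. B2M per summed heavy chain was 1.18 in A8ko, against 1.75 to 1.94 in Control, 1.65 in A2ko, and 1.53 and 1.81 in C9ko. A8ko thus had the lowest light to heavy chain ratio of the 7 libraries, with 799.4 TPM of summed heavy chains against 614.3 to 680.4 in Control.

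**Figure D3:**
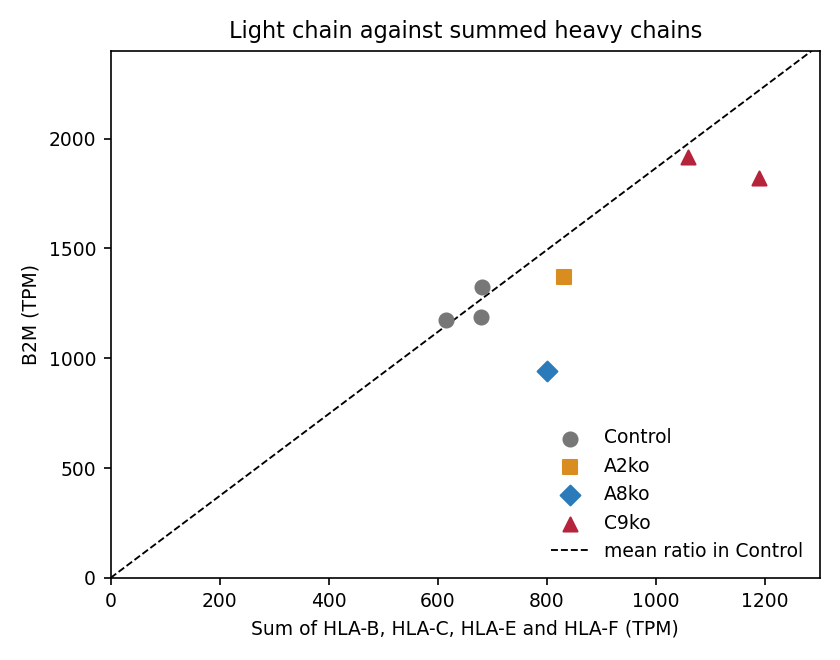
B2M against the sum of HLA-B, HLA-C, HLA-E and HLA-F, both in TPM, with 1 point per distinct library and a dashed line at the mean Control ratio of 1.87. A8ko has 942.7 TPM of B2M at 799.4 TPM of heavy chains and sits farthest below the line.

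The neighbours of B2M on chromosome 15 were low with it in A8ko. Of 48 other tested genes within 2 Mb of B2M, 42 had a negative log2 difference in A8ko and 38 lay below the Control libraries, with a median of -0.34 beside -0.38 for B2M. Within 10 Mb the median over 161 genes was -0.27 with 133 negative, and over the 510 other tested genes of chromosome 15 it was -0.27 with 399 negative, against 0.09 over all tested genes. The same 48 neighbours had a median of 0.26 in A2ko and 0.03 in C9ko, where B2M was at 0.61. The shift thus ran over chromosome 15 and not only near B2M. Its part in the B2M value of A8ko was not tested.

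**Figure D4:**
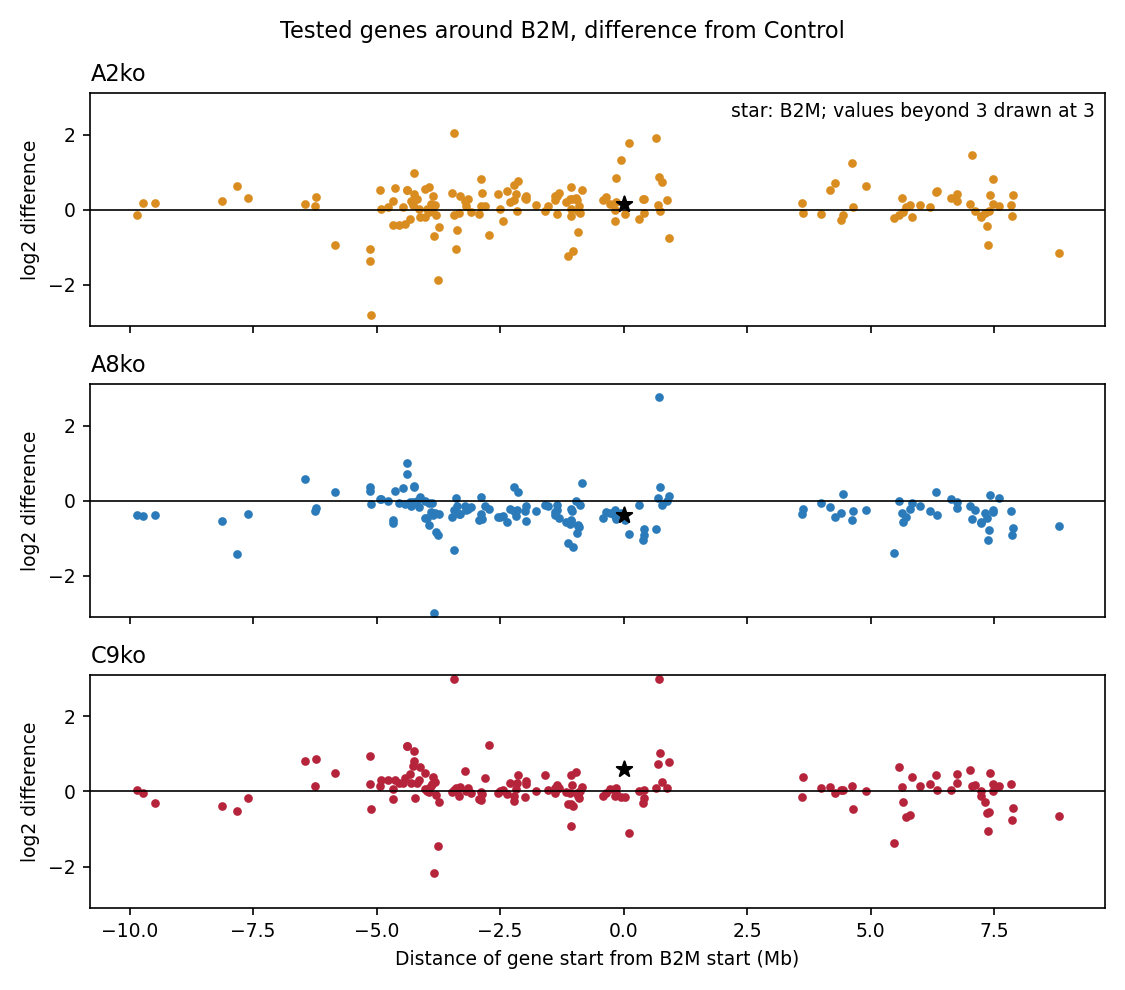
Log2 difference from Control against the distance of each gene's start from that of B2M, in Mb, with 1 panel per knockout and 1 point per tested gene (B2M as a star, values beyond 3 drawn at 3). In A8ko most points lie below 0 together with B2M, and in C9ko the points scatter around 0 with B2M at 0.61.

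The 110 other tested genes between HLA-F and TAPBP on chromosome 6 had a median of 0.03 in A2ko, 0.15 in A8ko and 0.17 in C9ko, against 0.12, 0.09 and 0.11 over all tested genes. The 52 tested genes within 2 Mb of NLRC5 had medians of 0.13, 0.19 and 0.23 in that order. In C9ko, each of the 7 members on chromosome 6 was above the median of its neighbours.

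The knockouts were then compared with Control together, each group as 1 value, so that the spread between knockouts counted as error. Limma called 0 of 9 members at an adjusted p-value under 0.05, where 1.03% of tested genes were called. At an unadjusted p under 0.05 there were 6 of 9, against 2740 of the 17100 tested genes. NLRC5 came nearest, with a difference of 0.58 (SE 0.12, limma adjusted p 0.0831), and was higher in 4 of 4 knockout libraries. The other estimates were 1.03 for HLA-B (limma adjusted p 0.184), 0.61 for HLA-F (0.293), 0.34 for HLA-E (0.138), 0.31 for HLA-C (0.239), 0.27 for TAPBP (0.229) and TAP1 (0.553), 0.22 for TAP2 (0.474) and 0.13 for B2M (0.822). HLA-B, HLA-C, HLA-E, TAPBP and NLRC5 lay above all Control libraries in every knockout library, 5 of 9 members beside 17.0% of tested genes. The 3 knockouts share their Control libraries, so nothing further is read from that count.

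The count of 0 depended on 1 knockout and on the model. Without A2ko, HLA-E and NLRC5 were called (limma adjusted p 0.0224 and 0.00827), as were 2002 of 16760 tested genes, against 176 of 17100 with it. With the knockouts averaged inside the fit of all 4 groups, where the spread between knockouts is not error, 8 members were called and B2M was not, beside 4361 of 17100 tested genes. No test was run between knockouts, as 2 of the 3 have a single distinct library.

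Outside the 9 members, genes of the pathway were followed by lists. The lists were written with earlier results of these data known, and their C9ko counts stand beside 29.5% of tested genes called and 22.0% called higher, with a median difference of 0.11. Of 9 genes for peptide loading and trimming, 6 were called higher in C9ko and 0 lower, with a median of 0.36. PDIA3, the oxidoreductase bound to tapasin in the loading complex, was at 201.3 to 227.3 TPM in Control and at 304.5 and 312.2 TPM in C9ko (0.51, limma adjusted p 0.00273). The chaperone CALR rose by 0.43 (limma adjusted p 0.00255), CANX by 0.37 (0.00366) and the peptide-trimming protease ERAP1 by 0.41 (0.00347). ERAP2 did not pass (0.14, limma adjusted p 0.235). None of the 9 was outside the Control range by 1 log2 unit in A2ko or A8ko.

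Of 8 tested proteasome genes, which supply peptides, 1 was called higher in C9ko and 2 lower, and the median was -0.08. PSMB9, an immunoproteasome subunit whose gene lies beside TAP1, was at 138.1 to 159.8 TPM in Control, 190.5 and 196.5 in C9ko (0.37, limma adjusted p 0.0124), 110.5 in A2ko and 148.2 in A8ko. In A2ko PSMB9 and TAP1 were both under the Control libraries, as were most of the other proteasome genes listed, PSMB5, PSMB6 and PSMB8 among them. Of tested genes, 26.3% lay there. The median of the 8 in A2ko was -0.23, against 0.12 over all tested genes. In A8ko PSMB9 overlapped Control and TAP1 was above it, so nothing is read from the pair. The constitutive subunits PSMB6 and PSMB5 fell by 0.40 and 0.37 in C9ko (limma adjusted p 0.00714 and 0.0113). PSMB8 was at 0.15 and PSMB10 at 0.19, and neither passed (limma adjusted p 0.299 and 0.0622).

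Among 13 transcription factors of class I promoters, 4 were called higher in C9ko and 1 lower, with a median of 0.14, so the list as a whole was near the background. RFX5, a subunit of the complex that NLRC5 joins, was at 19.5 to 21.2 TPM in Control and at 29.2 and 33.6 in C9ko (0.60, limma adjusted p 0.00233). NFYB rose by 0.74 (limma adjusted p 0.00176), CIITA, the class II counterpart of NLRC5, by 0.50 (0.00617) and RELA, a subunit of NF-kB, by 0.23 (0.0295). NFYC fell by 0.27 (limma adjusted p 0.031). IRF1, an activator at ISRE elements, was at 122.7 to 132.1 TPM in Control and at 125.0 and 132.0 in C9ko (0.02, limma adjusted p 0.852), and lower in A2ko at 75.7 and A8ko at 89.3 TPM. NLRC5 and IRF1 thus lay on opposite sides of the Control libraries in A2ko and A8ko.

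Of 17 tested interferon ligands, receptors and signalling genes, 11 were called higher in C9ko and 1 lower, with a median of 0.36. IFNG was listed at 0 in each library and IFNB1 was at 0.133 TPM or less. The ligand IFNE was present, at 4.68 to 5.62 TPM in Control, 4.85 and 3.95 in C9ko, 6.88 in A2ko and 3.90 in A8ko. It was not called in C9ko (-0.19, limma adjusted p 0.26). Both chains of the interferon gamma receptor were higher in C9ko, IFNGR1 by 0.70 (limma adjusted p 0.000434) and IFNGR2 by 0.82 (0.000289), and the kinase JAK2 by 1.06 (0.000623). IRF9, the DNA-binding part of an interferon-activated complex, stood at 6.25, 13.4 and 10.6 TPM in Control and at 13.4 and 13.8 in C9ko, with 47.4 in A2ko and 4.003 in A8ko. A2ko and A8ko thus stood on opposite sides of Control for IRF9.

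Of 10 tested class I-like and other class I genes, 5 were called higher in C9ko and 1 lower, with a median of 0.36. The stress ligands MICB and MICA, which activate natural killer cells, rose by 0.88 and 0.46 (limma adjusted p 0.000467 and 0.0165). FCGRT, a heavy chain that binds antibody and also pairs with B2M, rose by 0.48 in C9ko (limma adjusted p 0.00301) and stood at 65.2 TPM in A2ko, against 22.1 to 24.2 in Control. ULBP1 was called lower by 0.64 (limma adjusted p 0.0234), at 1.04 to 1.41 TPM in Control and 0.370 and 0.429 in C9ko. It passed the filter on low values through Control and A2ko alone, so nothing is read from its call. Of 8 tested repressors and negative regulators, 2 were called, SUSD6 and SUZ12, both higher (0.39 and 0.22, limma adjusted p 0.0115 and 0.0407), again near the background share.

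Markers of other cell types were checked because leukocytes express class I strongly. The sum of a list of 8 leukocyte markers was 15.3 to 19.2 TPM in Control, 25.1 in A2ko and 17.7 in A8ko. It was 54.1 and 52.4 TPM in C9ko, of which CD14 was 52.5 and 50.9. CD14 and ITGAM, 2 of the 8, passed the filter on low values, and both were called higher in C9ko. ITGAM reached 1 TPM only in the C9ko libraries, at 1.32 and 1.30, against 0.389 to 0.753 in Control. It passed the filter through C9ko alone, so nothing is read from its call. PTPRC, the defining leukocyte gene, was at 0.0232 TPM or less in each library, and MS4A1 was listed at 0 in each. The endothelial list (PECAM1, VWF, CDH5) summed to 3.51 to 4.55 TPM in Control, 22.2 and 30.1 in C9ko, 12.8 in A2ko and 8.63 in A8ko, nearly all CDH5, with PECAM1 at 0.295 TPM or less. The fibroblast list (COL1A1, COL3A1, PDGFRB) summed to 6.01 to 7.19 TPM in Control, 8.33 and 9.02 in C9ko, 14.2 in A2ko and 5.91 in A8ko, with COL3A1 listed at 0. The part of CD14, CDH5 and COL1A1 in the members' values was not tested.

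Genes with the most similar pattern were sought over the 7 libraries, among 10814 genes with a mean of at least 5 TPM, as a description only. B2M was most like LAP3 (r = 0.996), CCL2 (0.984) and OAS2 (0.983). LAP3, an aminopeptidase, was at 36.2 to 41.7 TPM in Control and at 58.5 and 62.7 in C9ko, with 41.6 in A2ko and 29.5 in A8ko. It lies on chromosome 4, CCL2 on 17 and OAS2 on 12. OAS2, an interferon-induced antiviral enzyme, was at 37.9 to 41.5 TPM in Control and at 29.4 in A8ko.

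NLRC5 was most like ACER3, AKR1B1 and PDXK (r = 0.995 for each), TAP1 most like IFRD2 (0.997) and SEC13 (0.995), and HLA-B most like PSMG4 (0.985), RAB27A (0.983) and EPC1 (0.980). With 7 points such values are common: 244 genes were above 0.95 for NLRC5, 301 for TAP1, 48 for B2M and 47 for HLA-B. Among the members, TAP1 and TAP2 were the closest pair (r = 0.984) and NLRC5 and B2M the least alike (r = 0.351). HLA-E was closer to NLRC5 (r = 0.943) than B2M was to any member, its highest being 0.848 with HLA-F. The libraries share their group means in these values, so the coefficients describe 4 groups more than 7 independent points.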

How the data were processed

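The deposited values are TPM per Ensembl gene, computed by the authors from polyA RNA in strand-specific dUTP libraries, on hg38 per the submitters' processing notes. The aligner, quantifier, annotation and use of strand in counting are not given in the sources used here. Members and lists were chosen with earlier results of these data known.

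From the files, log2(TPM + 1) was taken, and 17100 genes with at least 1 TPM in at least 2 of the 7 distinct libraries were tested. C9ko was tested with limma 3.58.1 (R 4.3.3) in a fit of all 4 groups (eBayes with trend, two-sided), and all knockouts together as 3 group means against 3 Control libraries. P-values were adjusted by Benjamini-Hochberg across every gene tested. Fold changes on this scale understate those of low genes. A2ko and A8ko were described by the Control range and a step of 1 log2 unit. The fits were tested on simulated data. Symbols were matched for 61463 of 78894 identifiers, and positions are those of GENCODE release 29 (GRCh38). All members were named, as were list genes picked among those called or past the step, and the 3 genes most like NLRC5, B2M, HLA-B and TAP1. Of these genes and the marker and pathway lists, 3 are not reported here by name. IRF1, IFNG, IFNB1, IFNE, ERAP2, PSMB8 and PSMB10 were named after their values were seen, as was the look at chromosomal neighbours. Alternatives covered the pseudocount, the filter, scaling, left-out libraries, the spread model and a replicate block.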

Additional observations from a re-analysis of the deposited data

Results flagged for a closer look

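B2M was above all Control libraries in C9ko and A2ko and below them in A8ko, a gap of 0.986 log2 units between C9ko and A8ko and of 0.539 between A2ko and A8ko. TAP1 was above Control in C9ko and A8ko and below it in A2ko, with gaps of 0.864 and 0.365. TAP2 had the same arrangement, with gaps of 0.501 and 0.252. These results were picked out because the knockouts lay on opposite sides of the same Control libraries, and the differences between knockouts were not tested. With libraries rescaled by their median ratio, B2M in A2ko was at -0.01 and overlapped Control, and with mitochondrial genes left out TAP2 in A2ko overlapped Control.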

How the results depend on the processing

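In C9ko, 7 to 9 members were called higher under each of the 14 alternatives. The count was 7 with no filter on low values and 8 with the replicate block, and it ranged from 7 to 9 when 1 library was left out. TAPBP and HLA-E were the members lost. For all knockouts together the count of 0 became 2 without A2ko and 8 with the knockouts averaged in the fit of all 4 groups, and it was 0 without each Control library. The difference of B2M in that comparison reversed without C9ko, from 0.13 to -0.11 (limma adjusted p 0.819). With a step of 0.5 log2 units in place of 1, 2 of 9 members were past it in A2ko and 2 in A8ko, beside 3903 and 3226 of 17100 tested genes, so these counts are near the background. The cause of these changes was not tested beyond the construction of each alternative. Same-numbered Control and C9ko libraries did not deviate together (r = -0.0529 and -0.0124 across genes). With 2 C9ko libraries both values rest on the same C9ko difference, so they cannot show whether the numbers pair the samples. Over all genes the replicate block gave 3246 called genes in place of 5038. Depth is unknown, so no counting error can be given, and 1 distinct library each in A2ko and A8ko limits what can be said of them.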
